A study of Mus musculus with 8 samples.

Results

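Genes for 10 sensors of foreign or misplaced nucleic acid and their adaptors were followed in 8 RNA-seq libraries of RFB, a mouse kidney line that its submitters give as fibroblasts. The genes were taken by symbol (Ddx58, Ifih1, Dhx58, Mavs, Tlr3, Zbp1, Eif2ak2, Adar, Trim25 and Cgas), and all 10 were found among the 22274 genes of the deposited table. An adenovirus for Cre (ad-CRE), the recombinase that cuts out DNA between loxP sites, was given in 4 libraries, and one for GFP (ad-GFP) in 4. Both groups thus received a virus, and both were given TGF-β, a cytokine that drives matrix production. The series names Suv39h1, a histone H3 lysine 9 methyltransferase, as the targeted gene. The labels describe no allele on which Cre would act, no dose or time of TGF-β and no origin of the replicates from separate cultures, and the design text calls the cells a knockdown. P-values thus measure only how far these libraries scatter, which may be technical scatter.

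Cells detect viral RNA and DNA by receptors that bind features their own nucleic acids mostly lack or hide. RIG-I (Ddx58) and MDA5 (Ifih1) are cytosolic helicases that recognise double-stranded RNA and pass the signal to MAVS on the mitochondrial surface, which leads to type I interferon. Interferon in turn raises the transcription of many of the sensors themselves through ISGF3, a transcription factor complex that binds the interferon-stimulated response element. Other members sense RNA in endosomes (TLR3), left-handed Z-form nucleic acids (ZBP1) or cytosolic DNA (cGAS), stop translation (PKR, from Eif2ak2) or edit double-stranded RNA so that it escapes detection (ADAR1).

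Promoters are shown for 5 members: Ddx58, Ifih1 and Eif2ak2, whose transcripts fell and whose windows hold the core letters of the interferon-stimulated response element, Trim25, which fell and whose window lacks them, and Mavs, which moved little and lacks them too. Each window runs 5′ to 3′ on the gene's strand from 250 bases before to 50 after the RefSeq start site (GRCm38.p6). Capitals mark exact matches to GAAANNGAAA on either strand, the core letters meant here. The windows are chr4:40239776-40240075 (Ddx58, minus strand), chr2:62646206-62646505 (Ifih1, minus strand), chr17:78882523-78882822 (Eif2ak2, minus strand), chr11:88999153-88999452 (Trim25, plus strand) and chr2:131233813-131234112 (Mavs, plus strand).
Ddx58: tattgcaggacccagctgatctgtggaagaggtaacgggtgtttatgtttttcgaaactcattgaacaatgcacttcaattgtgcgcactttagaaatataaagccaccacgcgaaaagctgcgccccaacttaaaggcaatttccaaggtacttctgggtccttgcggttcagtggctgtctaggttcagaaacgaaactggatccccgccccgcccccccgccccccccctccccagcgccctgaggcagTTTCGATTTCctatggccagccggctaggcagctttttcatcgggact
Ifih1: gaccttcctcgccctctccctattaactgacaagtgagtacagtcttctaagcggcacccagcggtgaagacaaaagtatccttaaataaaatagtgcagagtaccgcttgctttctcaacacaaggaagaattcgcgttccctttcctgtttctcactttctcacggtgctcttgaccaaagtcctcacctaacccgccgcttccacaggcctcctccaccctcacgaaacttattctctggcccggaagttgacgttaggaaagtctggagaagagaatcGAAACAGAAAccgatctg
Eif2ak2: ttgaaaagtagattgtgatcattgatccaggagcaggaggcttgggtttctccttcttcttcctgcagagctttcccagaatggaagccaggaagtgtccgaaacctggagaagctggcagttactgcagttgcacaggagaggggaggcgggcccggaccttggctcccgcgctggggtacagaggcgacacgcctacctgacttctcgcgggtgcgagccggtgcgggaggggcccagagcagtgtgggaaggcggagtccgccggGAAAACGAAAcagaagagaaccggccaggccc
Trim25: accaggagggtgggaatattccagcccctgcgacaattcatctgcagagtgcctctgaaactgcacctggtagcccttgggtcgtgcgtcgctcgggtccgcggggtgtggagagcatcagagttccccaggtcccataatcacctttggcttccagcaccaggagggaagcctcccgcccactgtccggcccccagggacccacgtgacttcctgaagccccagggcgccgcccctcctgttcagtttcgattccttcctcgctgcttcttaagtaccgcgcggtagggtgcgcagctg
Mavs: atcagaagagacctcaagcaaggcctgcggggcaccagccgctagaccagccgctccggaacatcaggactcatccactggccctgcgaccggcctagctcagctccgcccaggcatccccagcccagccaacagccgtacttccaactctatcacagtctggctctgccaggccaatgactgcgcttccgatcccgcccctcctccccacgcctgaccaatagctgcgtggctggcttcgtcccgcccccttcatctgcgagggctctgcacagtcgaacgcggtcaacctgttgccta

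RefSeq windows were found for 8 of the 10 genes (10 windows, 3 of them of Adar), and Dhx58 and Zbp1 had none in the table used. GAAANNGAAA occurred in the windows of 3 genes, Ddx58, Ifih1 and Eif2ak2, and in 3.44% of all 32851 windows. Of the 6 genes that fell and have a window, 3 thus lack an exact match, namely Adar, Cgas and Trim25, as do Mavs and Tlr3. Near matches exist, such as GAAAGTGAAC in a window of Adar, TTTCGATTCC in that of Trim25 and TTTCACTTTG in that of Tlr3. They were not searched for or counted, so the split of genes by this motif rests on exact letters. The match lies 2, 32 and 18 bases past the start site in Ddx58, Ifih1 and Eif2ak2, and in Ddx58 it is on the opposite strand. A gamma-activated site (TTCNNNGAA, a palindrome outside its central bases) occurred in the windows of 2 genes, Eif2ak2 and Adar, and in 8.3% of all windows, with no overlap between matches of the 2 motifs. These matches are letters in a window and do not show that a factor was bound.

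Total counts were 17572152 to 22297598 in ad-CRE and 15998257 to 20920828 in ad-GFP libraries. Suv39h1, the target by the series title, was at 32.3, 32.9, 33.4 and 31.6 CPM (reads scaled to the library total, corrected by TMM) in ad-CRE libraries, against 37.2, 43.6, 44.1 and 41.3 CPM in ad-GFP libraries, so a transcript remained in every ad-CRE library. Smarca4, which encodes the SWI/SNF remodelling ATPase BRG1, was at 29.9 to 37.3 CPM in ad-CRE and 276 to 300 CPM in ad-GFP libraries. Suv39h1 was thus 1.27-fold lower in ad-CRE (log2 fold change -0.35, edgeR adjusted p = 8.65e-07), whereas Smarca4, which the labels do not name, was 8.40-fold lower (-3.07, edgeR adjusted p = 3.82e-31). The transcript named as the target therefore moved little beside that of Smarca4, and the labels do not say which gene Cre acted on. The labelled cell type was checked by markers: Vim averaged 693 CPM in ad-CRE and 1614 CPM in ad-GFP, but Lum, another fibroblast marker, had 1 read in ad-CRE and 0 in ad-GFP, and epithelial Krt8 averaged 1983 CPM in ad-CRE and 745 CPM in ad-GFP. Levels within each kind of marker were uneven. Among fibroblast markers Acta2 averaged 1132 CPM in ad-CRE and 1645 CPM in ad-GFP and Col1a1 59.7 and 170 CPM, but Dcn 0.362 and 3.87 CPM. Among epithelial markers Cdh1 averaged 484 CPM in ad-CRE and 204 CPM in ad-GFP and Epcam 184 and 81.5 CPM, but Slc34a1 had 1 and 2 reads. Some markers of both kinds were thus present in both groups, which the label of fibroblast alone does not describe. Of 12 leukocyte markers 10 were tested and 7 fell, their summed level was 205 to 217 CPM in ad-CRE and 274 to 314 CPM in ad-GFP libraries, Cd3e was at 0 in all libraries, and Ptprc, the pan-leukocyte marker, did not pass (14.9 ± 1.26 CPM in ad-CRE and 16.4 ± 2.90 CPM in ad-GFP). Of 11 fibroblast markers tested 10 fell and 1 rose (summed level 2424 to 2560 CPM in ad-CRE and 4474 to 4615 CPM in ad-GFP libraries). Of 11 tubular epithelial markers tested 8 rose and 2 fell (4731 to 4921 CPM in ad-CRE and 2001 to 2222 CPM in ad-GFP libraries), and 7 of 7 endothelial markers fell (63.0 to 70.9 CPM in ad-CRE and 137 to 151 CPM in ad-GFP libraries). Over all genes tested 36.3% fell and 36.8% rose. The part of these marker shifts in the results on the sensors was not tested. In bulk RNA fewer cells of a type and less RNA per cell cannot be told apart.

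Lower in ad-CRE cells were 8 of the sensor genes, Ddx58, Ifih1, Dhx58, Zbp1, Cgas, Trim25, Eif2ak2 and Adar. The falls ran from 2.03-fold for Adar, the RNA editor, to 15.85-fold for Dhx58, the third RIG-I-like helicase. Mavs, the adaptor on which RIG-I and MDA5 converge, was slightly higher, and Tlr3 did not pass. Calls are from edgeR's quasi-likelihood test over 13702 genes, with Benjamini-Hochberg adjustment and a threshold of 0.05. By that rule 8 of 10 members fell, where 36.3% of all genes tested fell, and 1 of 10 rose, where 36.8% of all genes rose. In all, 73.1% of genes passed in either direction, so passing alone sets no member apart. The median log2 fold change was -1.61 over the 10 members and 0.00 over all genes tested. The 2 groups did not overlap in 9 of 10 members, against 66.2% of all genes. The members were chosen with earlier results of these data known, so these contrasts are not independent of that choice.

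**Figure D1:**
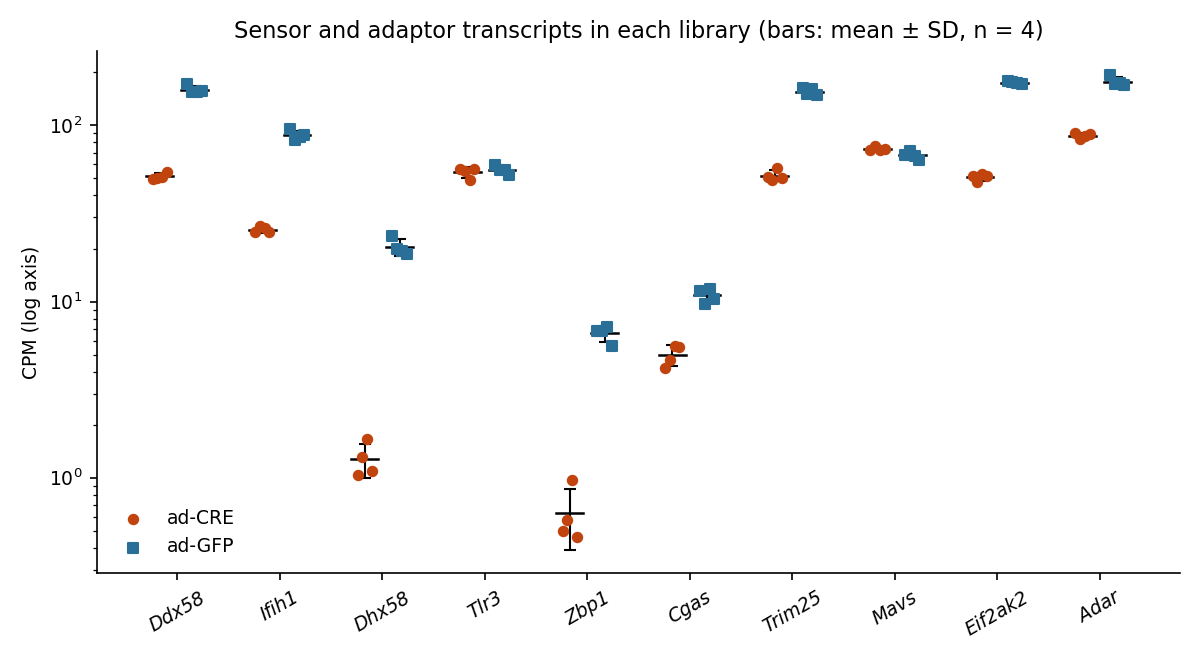
CPM of the 10 genes in each library on a log axis, with ad-CRE libraries (circles) left of ad-GFP libraries (squares) and bars for mean ± SD (n = 4 each). The groups overlap in Tlr3 alone, and Dhx58 and Zbp1 show the widest gaps.

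The cytosolic RNA helicases are taken first. Ddx58 (ENSMUSG00000040296, GRCm38 chromosome 4, 40203773 to 40239828, minus strand) encodes RIG-I, which binds short double-stranded RNA with a 5′ triphosphate. Its level was 49.6, 50.4, 51.3 and 54.5 CPM in ad-CRE libraries, against 171, 154, 154 and 157 CPM in ad-GFP libraries. The groups were far apart, with ad-CRE 3.10-fold lower. By edgeR the log2 fold change was -1.63 ± 0.0397 (SE; adjusted p = 1.89e-25).

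Ifih1 (ENSMUSG00000026896, chromosome 2, 62595798 to 62646255, minus strand) encodes MDA5, the receptor for long double-stranded RNA. It was at 24.7, 26.9, 26.1 and 24.8 CPM in ad-CRE libraries, against 95.4, 83.1, 86.2 and 88.3 CPM in ad-GFP libraries. No ad-CRE library came near an ad-GFP one, and replicate 1 was the highest in ad-GFP for Ifih1 as for Ddx58. The difference amounted to log2 fold change -1.79 ± 0.0486 by edgeR (SE; adjusted p = 3.62e-24).

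Dhx58 (ENSMUSG00000017830, chromosome 11, 100694884 to 100704271, minus strand) encodes LGP2, a helicase without the signalling domains of the other two, known to aid MDA5 and to restrain RIG-I. It was at 1.04, 1.30, 1.67 and 1.09 CPM in ad-CRE libraries, against 23.6, 19.9, 19.3 and 18.6 CPM in ad-GFP libraries. The ad-CRE libraries hold 103 reads of the gene in all and the ad-GFP libraries 1522, so its transcript was low but detected in every ad-CRE library. With log2 fold change -3.99 ± 0.129 by edgeR (SE; adjusted p = 2.98e-22), it had the 87th lowest value of the 13702 genes. On the log2(FPKM + 1) scale, where the added 1 shrinks low values, its change was -2.64.

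Ratios of 2 transcripts within a library do not depend on how libraries are scaled. For 10 pairs they were compared by a two-sided exact permutation test over the 8 libraries (70 splits, smallest possible p = 0.0286), with adjustment over the 10 pairs. The groups did not overlap in CPM in 66.2% of all genes tested, so a ratio that separates them is not read as particular to these pairs. The share over other pairs of genes was not computed. Dhx58 reads per Ddx58 read were 0.0214, 0.0263, 0.0329 and 0.0206 in ad-CRE libraries, against 0.138, 0.129, 0.125 and 0.118 in ad-GFP libraries. LGP2 transcripts were thus rarer relative to RIG-I transcripts in every ad-CRE library. The log2 ratio differed by -2.36 (exact permutation p = 0.0286, adjusted p = 0.0317), and that of Dhx58 to Ifih1 by -2.20 (exact permutation p = 0.0286, adjusted p = 0.0317). Ifih1 and Ddx58 kept closer to each other: there were 0.498, 0.534, 0.508 and 0.455 Ifih1 reads per Ddx58 read in ad-CRE libraries, against 0.557, 0.538, 0.560 and 0.562 in ad-GFP libraries. The groups came close without overlap, with a log2 difference of -0.15 (exact permutation p = 0.0286, adjusted p = 0.0317). With any 1 of the 4 ad-GFP libraries left out that small difference no longer passed, at -0.15 to -0.17.

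**Figure D2:**
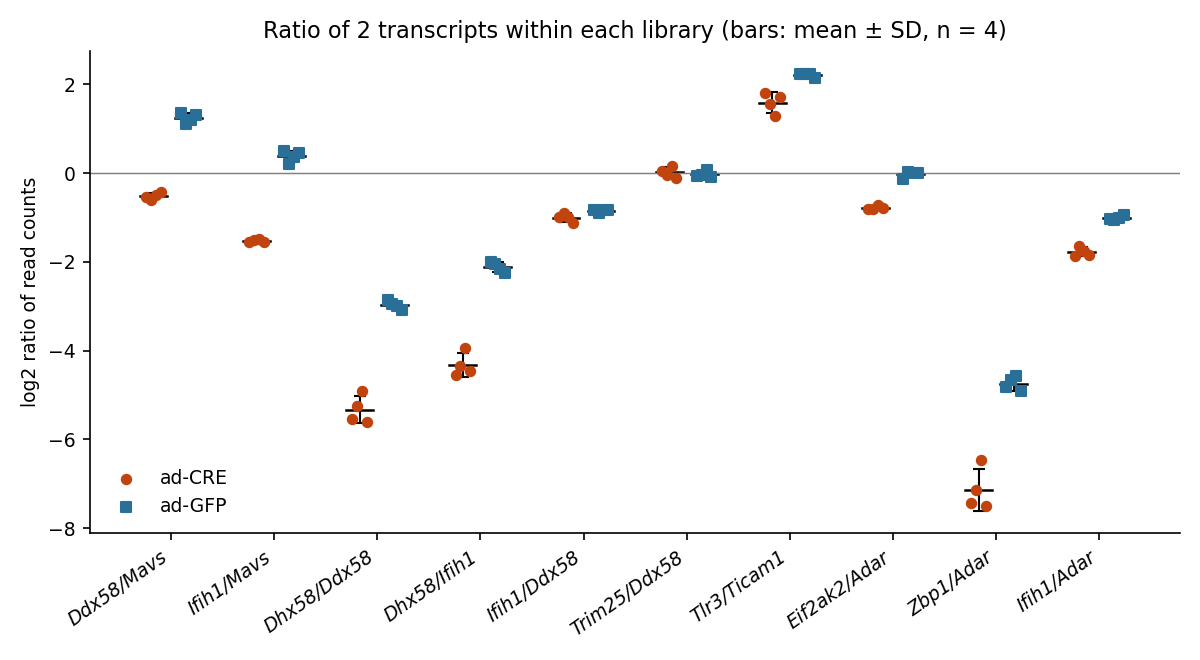
log2 ratio of the read counts of 2 genes within each library for 10 pairs, ad-CRE (circles) left of ad-GFP (squares), with bars for mean ± SD (n = 4 each). In 9 pairs the groups do not overlap, and in Trim25/Ddx58 they do. Of single genes tested, 66.2% do not overlap in CPM, and the share over other pairs was not computed.

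Trim25 (ENSMUSG00000000275, chromosome 11, 88999376 to 89020293, plus strand) encodes a ubiquitin ligase known to promote RIG-I activation. It was at 50.9, 49.0, 57.3 and 50.4 CPM in ad-CRE libraries, against 163, 150, 160 and 149 CPM in ad-GFP libraries. The groups were well apart, with log2 fold change -1.58 ± 0.0424 by edgeR (SE; adjusted p = 2.38e-24). Relative to Ddx58 no change could be told: the log2 ratio was 0.01 ± 0.12 in ad-CRE and -0.03 ± 0.06 in ad-GFP (SD, n = 4; difference 0.05, exact permutation p = 0.6, adjusted p = 0.6), and its sign turned without ad-CRE replicate 3.

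Mavs (ENSMUSG00000037523, chromosome 2, 131234063 to 131248025, plus strand) encodes the mitochondrial adaptor of RIG-I and MDA5. It was at 72.3, 76.3, 72.7 and 73.5 CPM in ad-CRE libraries, against 67.8, 71.9, 67.1 and 64.0 CPM in ad-GFP libraries. Every ad-CRE library was above every ad-GFP library, but the nearest pair of libraries, 72.3 in ad-CRE and 71.9 in ad-GFP, were almost level. Mavs rose by log2 fold change 0.12 ± 0.04 by edgeR (SE; adjusted p = 0.00845), 1.09-fold. The authors' deposited table gives a log2 ratio of mean FPKM of 0.112 for it, with an FDR of 0.0158.

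The ratio of receptor to adaptor reads thus differed between the groups. There were 0.686, 0.660, 0.706 and 0.742 Ddx58 reads per Mavs read in ad-CRE libraries, against 2.53, 2.15, 2.30 and 2.46 in ad-GFP libraries. Ddx58 reads were fewer than Mavs reads in all ad-CRE libraries and more numerous in all ad-GFP libraries. The log2 ratio differed by -1.75 for Ddx58 to Mavs and by -1.91 for Ifih1 to Mavs (each exact permutation p = 0.0286, adjusted p = 0.0317). These are ratios of reads, not of molecules, since the genes differ in length.

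Tlr3 (ENSMUSG00000031639, chromosome 8, 45395665 to 45411080, minus strand) encodes the endosomal receptor for double-stranded RNA, which signals through TRIF and not through MAVS. It was at 56.7, 55.2, 48.8 and 56.5 CPM in ad-CRE libraries, against 59.4, 56.2, 55.9 and 52.6 CPM in ad-GFP libraries. The groups overlapped, and the difference did not pass (log2 fold change -0.05, SE 0.0485, edgeR adjusted p = 0.363). The value was 0.002 without ad-CRE replicate 3, the lowest library. The authors' deposited table likewise gives an FDR of 0.549. Ticam1, which encodes TRIF, rose by a log2 fold change of 0.58 (18.1 ± 1.70 CPM in ad-CRE and 12.1 ± 0.288 CPM in ad-GFP; SD, n = 4; edgeR adjusted p = 5.84e-08). The log2 ratio of Tlr3 to Ticam1 was different by -0.62, lower in ad-CRE (exact permutation p = 0.0286, adjusted p = 0.0317).

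Zbp1 (ENSMUSG00000027514, chromosome 2, 173206612 to 173218923, minus strand) encodes a sensor of Z-form nucleic acids that can start necroptosis, a lytic form of cell death, through RIPK3. It was at 0.498, 0.572, 0.972 and 0.461 CPM in ad-CRE libraries, against 6.82, 6.79, 7.21 and 5.59 CPM in ad-GFP libraries. The gene was weakly expressed in both groups, with 51 reads over the ad-CRE and 492 over the ad-GFP libraries, and the groups were far apart. By edgeR the log2 fold change was -3.37 ± 0.198 (SE; adjusted p = 1.07e-15), and -1.95 on the log2(FPKM + 1) scale.

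Cgas (ENSMUSG00000032344, chromosome 9, 78430526 to 78443237, minus strand) encodes the enzyme that answers cytosolic DNA with a cyclic dinucleotide that activates STING. It was at 4.21, 4.63, 5.60 and 5.53 CPM in ad-CRE libraries, against 11.5, 9.64, 11.8 and 10.4 CPM in ad-GFP libraries. All ad-CRE libraries lay below all ad-GFP libraries, log2 fold change -1.12 ± 0.111 by edgeR (SE; adjusted p = 2.17e-10). Sting1, its adaptor, fell too, with 4.71 ± 0.710 CPM in ad-CRE and 15.0 ± 0.903 CPM in ad-GFP (SD, n = 4), and its log2 fold change was -1.68 (adjusted p = 3.2e-15 by edgeR).

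Eif2ak2 (ENSMUSG00000024079, chromosome 17, 78852564 to 78882573, minus strand) encodes PKR, a kinase that double-stranded RNA activates and that halts translation by phosphorylating eIF2α. It was at 51.7, 47.5, 52.8 and 51.8 CPM in ad-CRE libraries, against 178, 176, 174 and 172 CPM in ad-GFP libraries. The ad-GFP libraries lay within a few CPM of each other and the ad-CRE libraries at a far lower level. By edgeR the log2 fold change was -1.78 ± 0.0356 (SE; adjusted p = 1.47e-27).

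Adar (ENSMUSG00000027951, chromosome 3, 89715022 to 89753446, plus strand) encodes ADAR1, which turns adenosine into inosine in double-stranded RNA and so keeps MDA5 and PKR from reacting to the cell's own RNA. It was at 90.03, 84.0, 87.5 and 89.0 CPM in ad-CRE libraries, against 195, 173, 173 and 170 CPM in ad-GFP libraries. The editor was lower in every ad-CRE library, and ad-GFP replicate 1 stood above the other 3 of its group. By edgeR the log2 fold change was -1.02 ± 0.0382 (SE; adjusted p = 1.24e-20). Chrnb2 overlaps Adar on the other strand over 7252 bases. No source used here says whether counting used strand; Chrnb2 held only 183 reads in ad-CRE and 360 in ad-GFP, whereas Adar held 7039 in ad-CRE and 13232 in ad-GFP. GENCODE M21 also places genes on the opposite strand within Dhx58 (Dhx58os, over 2637 bases), Tlr3, Cgas and Eif2ak2, whose reads were not analysed here. Gene totals do not separate the interferon-inducible long form of ADAR1 from the short one.

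Adar fell less than Eif2ak2, Ifih1 and Zbp1, which encode sensors that ADAR1 editing is known to hold in check. Eif2ak2 reads per Adar read were 0.575, 0.565, 0.604 and 0.583 in ad-CRE libraries, against 0.915, 1.017, 1.002 and 1.010 in ad-GFP libraries. PKR transcripts thus had fewer reads than ADAR1 transcripts in every ad-CRE library and about as many in ad-GFP libraries. The log2 ratio differed by -0.76 for Eif2ak2 to Adar, by -0.77 for Ifih1 to Adar and by -2.39 for Zbp1 to Adar (each exact permutation p = 0.0286, adjusted p = 0.0317).

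**Figure D3:**
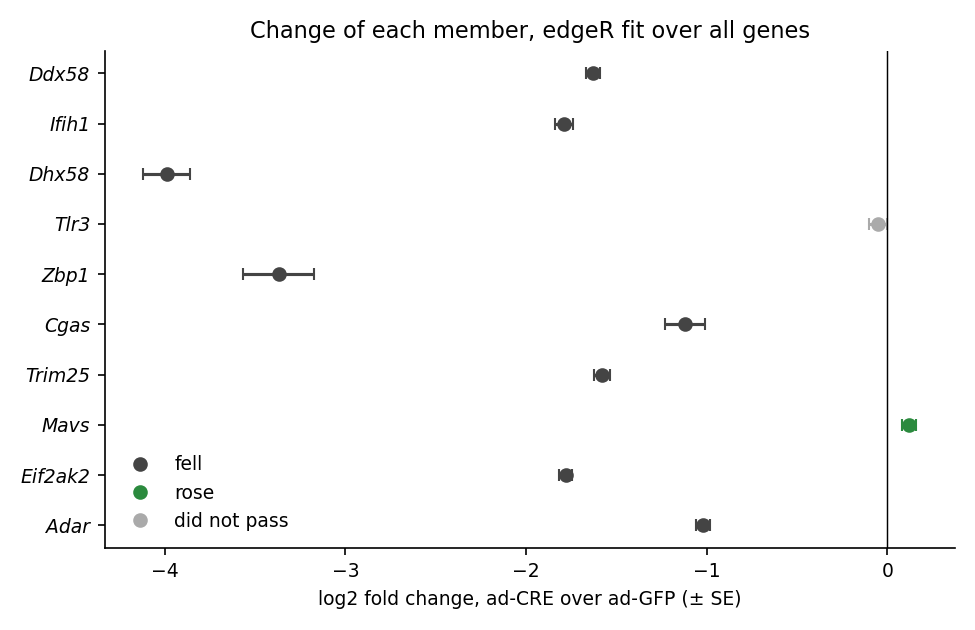
log2 fold change of each gene, ad-CRE over ad-GFP, with its SE from the edgeR fit over all genes. Dhx58 (-3.99) and Zbp1 (-3.37) lie lowest, 6 genes lie between -1.79 and -1.02, Tlr3 did not pass and Mavs (0.12) rose.

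Levels between genes were compared by the deposited FPKM, which accounts for gene length. In ad-CRE libraries Mavs was the most abundant (24.9 ± 0.671 FPKM, SD, n = 4), followed by Tlr3 (17.3 ± 2.22 FPKM) and Adar (17.3 ± 0.607 FPKM), which overlapped each other. Ddx58 (13.1 ± 0.535 FPKM), Eif2ak2 (11.7 ± 0.538 FPKM), Trim25 (9.81 ± 0.858 FPKM), Ifih1 (5.33 ± 0.295 FPKM) and Cgas (1.34 ± 0.121 FPKM) came next without overlap, and Zbp1 (0.565 ± 0.184 FPKM) and Dhx58 (0.523 ± 0.114 FPKM) came last and overlapped. In ad-GFP libraries Ddx58 (41.5 ± 2.15 FPKM) and Eif2ak2 (40.9 ± 0.701 FPKM) led and overlapped. Adar (35.9 ± 2.24 FPKM), Trim25 (29.99 ± 2.86 FPKM) and Mavs (23.0 ± 1.11 FPKM) followed, then Ifih1 (19.6 ± 1.05 FPKM) and Tlr3 (18.6 ± 0.963 FPKM), which overlapped, and Dhx58 (8.51 ± 0.951 FPKM), Zbp1 (5.08 ± 0.842 FPKM) and Cgas (2.98 ± 0.255 FPKM) came last without overlap. Mavs thus ranked 1 of 10 in ad-CRE and 5 of 10 in ad-GFP. Summed over the 10 genes, the level was 98.7 to 105 FPKM in ad-CRE and 215 to 239 FPKM in ad-GFP libraries.

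The deposited counts and FPKM together imply a transcript length for each gene and library, since FPKM divides by length and count does not. This measure was chosen after the files were seen. For Ddx58 and Eif2ak2 (10 and 4 transcripts in GENCODE M21) this length was the same within a few bases. For some other members, Trim25 and Zbp1 with 3 transcripts each among them, it moved between libraries. It was 4746, 4686, 4739 and 4876 bases for Ifih1 in ad-CRE libraries, against 4563, 4477, 4548 and 4588 bases in ad-GFP libraries, so the groups did not overlap (exact permutation p = 0.0286, adjusted p = 0.143 over the 10 genes). For Mavs it was 2938, 2927, 2943 and 2928 bases in ad-CRE and 2970, 2973, 2971 and 2963 bases in ad-GFP libraries, a difference of -1.18% with the same p-values. Among 5691 genes with at least 500 reads and 5 FPKM in every library, the lengths of the groups did not overlap in 11%. No member passed after adjustment, which 10 tests at the smallest possible p would allow only if at least 6 of them reached it. Tlr3, whose length ran from 2725 to 3457 bases in ad-CRE and from 2877 to 3245 bases in ad-GFP, and Zbp1, with 897 to 1301 bases in ad-CRE and 1188 to 1457 bases in ad-GFP, varied most. Their FPKM values carry that variation and their CPM values do not.

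**Figure D4:**
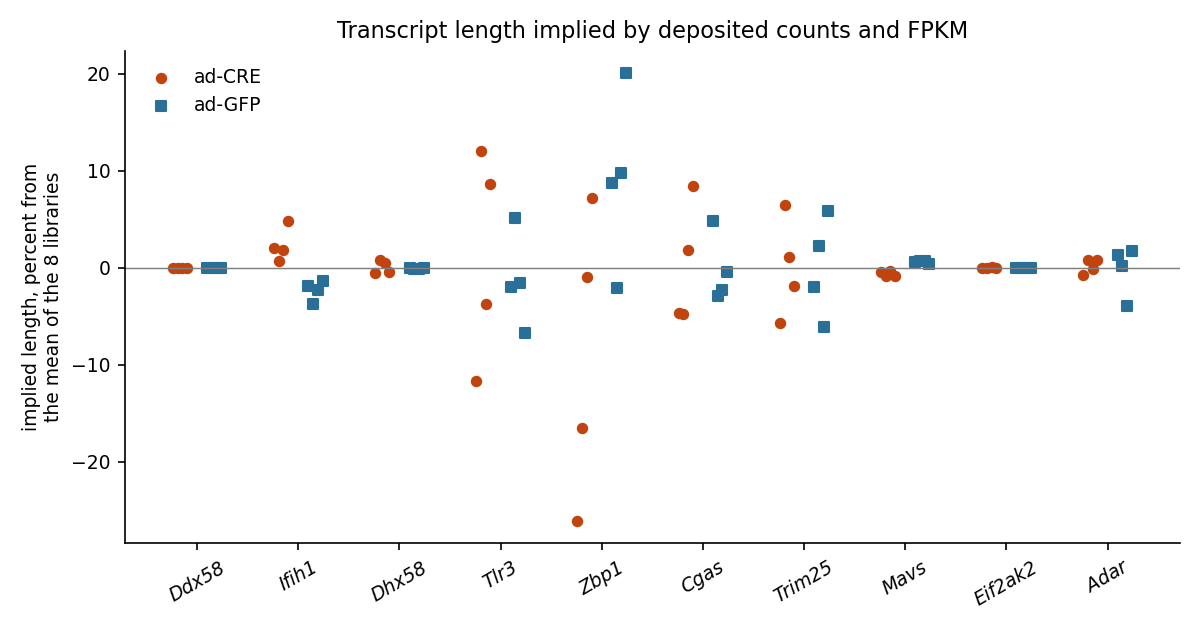
Transcript length implied by the deposited count and FPKM, as percent from the mean of the 8 libraries, for each gene and library, ad-CRE (circles) left of ad-GFP (squares). Ifih1 and Mavs are the genes whose groups do not overlap, and Ddx58 and Eif2ak2 stay on the line.

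Other genes of the pathway were grouped by role, and values without a unit are log2 fold changes, ad-CRE over ad-GFP. Of 24 other sensors of nucleic acid, 16 fell, 3 rose and 5 did not pass (median log2 fold change -0.28). The DNA sensor gene Ifi204 was at 7.63 ± 0.628 CPM in ad-CRE and 77.7 ± 7.20 CPM in ad-GFP (SD, n = 4), or -3.35 (edgeR adjusted p = 4.72e-27). Ddx60, which encodes a helicase reported to aid RIG-I signalling, had -5.69 (edgeR adjusted p = 2e-24; 37 reads in ad-CRE and 1805 in ad-GFP), and Mndal and Ifi203, from the same family as Ifi204, had -2.03 and -1.98. Genes of that family are close relatives, and no source used here says how shared reads were treated, which leaves each value of that family uncertain. The abundant RNA helicase gene Ddx3x had -0.17, and Lrrfip1, whose product binds nucleic acids, rose by 0.15.

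Of 27 adaptors, ubiquitin ligases and kinases, 12 fell, 5 rose and 10 did not pass (median -0.06). Zc3hav1, which encodes the antiviral zinc finger protein ZAP, fell with -1.42 (71.7 ± 0.836 CPM in ad-CRE and 191 ± 5.31 CPM in ad-GFP; SD, n = 4; edgeR adjusted p = 3.18e-26), and Nlrc5, an activator of class I histocompatibility genes, with -2.60. Ikbke, a kinase that phosphorylates IRF3, rose by 0.67 (edgeR adjusted p = 7.59e-13). The abundant Ywhae, which encodes the RIG-I chaperone 14-3-3ε (0.03, edgeR adjusted p = 0.228) and Tomm70a, a mitochondrial import receptor gene (-0.06, edgeR adjusted p = 0.0509) did not pass.

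Among limiters of sensor signalling, 12 of 23 rose, 7 fell and 4 did not pass (median 0.12). Rnf5, a ubiquitin ligase that targets STING, rose by 0.83 (28.1 ± 1.47 CPM in ad-CRE and 15.7 ± 1.21 CPM in ad-GFP; SD, n = 4; edgeR adjusted p = 6.23e-13) and Tnfaip3, which encodes the NF-kB inhibitor A20, by 0.27. Mfn2, a mitochondrial fusion gene, and Pcbp2, which promotes turnover of MAVS, fell, with -0.54 and -0.27, and Tax1bp1 did not pass (0.05, edgeR adjusted p = 0.143).

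Of 17 genes for editing and degradation of nucleic acids, 9 fell, 4 rose and 4 did not pass (median -0.21). Pnpt1, a mitochondrial RNA exonuclease gene, had -0.79, Samhd1, a dNTP hydrolase gene, -0.50 and Wdr61 -0.37, whereas Skiv2l and Ttc37, whose products act with that of Wdr61 in the SKI complex of RNA decay, rose by 0.30 and 0.26. Dicer1, which encodes a nuclease that cuts double-stranded RNA, did not pass (0.04, edgeR adjusted p = 0.244). Adarb2 was too low to be tested.

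Around PKR, 6 of 14 genes of the eIF2α kinase arm rose, 4 fell and 4 did not pass (median 0.00). Eif2ak3, which encodes PERK, the eIF2α kinase of the endoplasmic reticulum, averaged 327 ± 2.93 CPM in ad-CRE and 165 ± 2.996 CPM in ad-GFP (SD, n = 4), so it rose by 0.99 (edgeR adjusted p = 2.66e-24) where Eif2ak2 fell by 1.78 on the log2 scale. Stau1, which encodes a double-stranded RNA binding protein, rose by 0.37. Ppp1r15a and Ppp1r15b, which encode the subunits that direct a phosphatase to eIF2α, had -0.45 and -0.37, and Atf4, a transcription factor of the integrated stress response, did not pass (-0.02, edgeR adjusted p = 0.384).

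Among 6 necroptosis partners of ZBP1, 2 fell, 1 rose and 3 did not pass (median -0.05). The pair that fell were Ripk3, the kinase ZBP1 engages, at 3.79 ± 0.303 CPM in ad-CRE and 15.6 ± 0.928 CPM in ad-GFP (SD, n = 4; log2 fold change -2.04), and Mlkl, the pore-forming effector, with -1.90. Casp8, a caspase that restrains necroptosis, rose by 0.32, while Ripk1 (-0.07, edgeR adjusted p = 0.122) and Cflar (-0.03, edgeR adjusted p = 0.498) did not pass.

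Of 27 genes for interferons, their receptor and ISGF3, 8 were tested, of which 4 fell, 3 rose and 1 did not pass (median -0.70). Irf9, a gene of the ISGF3 complex, was at 25.4 ± 1.49 CPM in ad-CRE and 71.2 ± 2.09 CPM in ad-GFP (SD, n = 4) and fell with -1.49 (adjusted p = 2.47e-22 by edgeR). Stat2, of the same complex, had -2.58, and Irf7, an interferon-inducible regulator of interferon genes, had -5.93. The receptor-associated kinase gene Jak1 rose by 0.27. The 19 interferon genes on the list had too few reads for a test, and 14 of them had no read in any library. Ifnz had the most, with 43 reads over the ad-CRE and 18 over the ad-GFP libraries. Ifnab had 2 reads in ad-CRE and 11 in ad-GFP, Ifnb1 had 0 in ad-CRE and 5 in ad-GFP, and Ifna13 and Ifne had 1 read each. The list counts stand against 36.3% of all genes that fell and 36.8% that rose, and no test of a list was made.

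**Figure D5:**
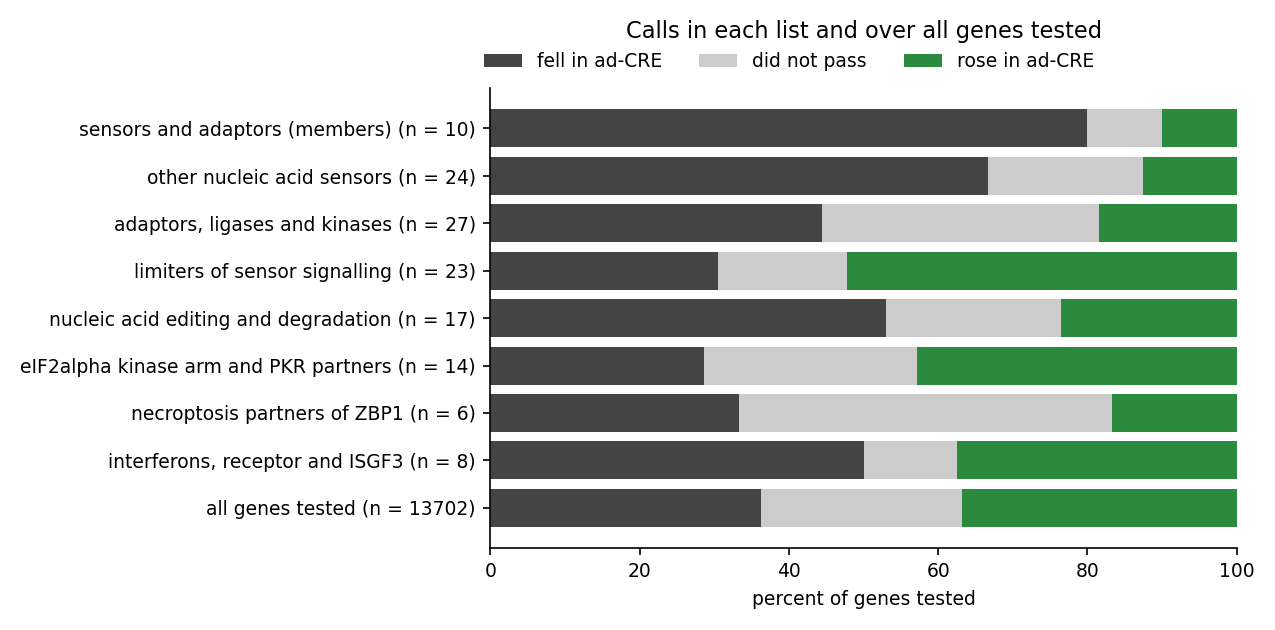
Percent of the genes tested in each list that fell, did not pass or rose in ad-CRE relative to ad-GFP, with all 13702 genes tested in the lowest row. Among the sensor and pathway lists plotted, which leave out the cell type markers, 8 of 10 sensors and adaptors fell. Of genes listed as limiters, 12 of 23 rose, and that list also holds Ppp1ca and Ppp1cc, which are not limiters.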

How the data were processed

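RNA was sequenced in 8 libraries, which per the labels' protocols were made from RNeasy-extracted RNA with a SMARTer mRNA-seq kit. The authors deposited 1 table with a read count and an FPKM per gene and library, per the file headers, together with a log2 ratio of group means, a p-value and an FDR. The submitters' processing notes name GRCm38 and mm10. No aligner, counter or test is named in the sources used here. GENCODE M21 (GRCm38) held 99.75% of the IDs and gave coordinates; RefSeq (GRCm38.p6) gave promoters. Precision is limited by the counts of each gene (51 reads over 4 libraries for Zbp1 in ad-CRE).

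Columns were matched to samples by title. Genes were kept by filterByExpr, scaled by TMM and tested with edgeR 4.0.16 in R 4.3.3 (glmQLFit, glmQLFTest, group as the only term), with Benjamini-Hochberg adjustment over 13702 genes. An SE is the log2 fold change divided by the square root of F. Ratios used counts plus 0.5. Implied length is proportional to the count over the product of FPKM and total count, a measure chosen after seeing the files. The edgeR step was run on simulated counts with few genes changed, rises and falls balanced, and a dispersion shared by all genes. That setting differs from these data, where 73.1% of genes passed, so it does not check scaling or error rates here. The members and lists were chosen with earlier results of these data known. Named genes are the members, Suv39h1, Smarca4, genes of a ratio, and per list the 4 with the smallest p and the 2 with the highest mean CPM. A result of that rule is not reported here. Alternatives were other scalings and filters, DESeq2 1.42.0, limma 3.58.1 (voom, or log2 FPKM), a threshold of 0.01, a replicate term and each library left out.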

Additional observations from a re-analysis of the deposited data

Results flagged for a closer look

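In 40 groups of 4 values (CPM of the 10 genes and 10 log2 ratios, in each group of libraries), 3 held a value far from the other 3 by Dixon's test, where chance flags about 1 in 20. Adar was at 194.6 CPM in ad-GFP replicate 1, above 170 to 173 CPM in the other 3 ad-GFP libraries. In the same library the log2 ratio of Eif2ak2 to Adar was -0.13, below the other 3, and in ad-GFP replicate 4 that of Tlr3 to Ticam1 was 2.13, below the other 3. The falls of Adar and of both ratios passed without those libraries as well.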

How the results depend on the processing

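Under all 18 alternatives 8 of the 10 genes fell and 1 rose, as in the main result, and the number of genes called over the whole table was 8366 to 10765, against 10022. Each of the 9 called genes kept its direction and its side of the threshold. Ranges over the alternatives were -4.15 to -2.64 for Dhx58, -3.68 to -1.95 for Zbp1 and 0.092 to 0.151 for Mavs, where the least negative values of Dhx58 and Zbp1 came from log2(FPKM + 1). Tlr3, which was not called, changed sign to 0.002 without ad-CRE replicate 3, in a range of -0.076 to 0.002 with 1 library left out. With libraries scaled by total counts only, 47.2% of calls were rises, against 50.4%. All counts in the 7 pathway lists stayed within 1.5 times the main count. The sign of the log2 ratio of Trim25 to Ddx58 turned to -0.005 without ad-CRE replicate 3, and its range with 1 library left out was -0.005 to 0.087. That of Ifih1 to Ddx58 lay between -0.187 and -0.11 with 1 library left out, and lost its call without any 1 of the ad-GFP libraries. The difference itself was then -0.167 to -0.147, against -0.153 with all libraries. With groups of unequal size, a mixed split of the libraries can differ more than the groups themselves. The lost call thus does not by itself show a smaller difference.

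The labels do not say whether libraries with the same replicate number belong together. Deviations of same-numbered libraries correlated at -0.053 to 0.065, and those of differently numbered ones at -0.199 to 0.139. These few weak correlations cannot decide whether the libraries are paired. A replicate block gave 9963 calls. A paired sign test of the ratios can reach no p below 0.125, so all lost their call there, with unchanged differences of -1.753 (Ddx58/Mavs), -1.906 (Ifih1/Mavs), -2.357 (Dhx58/Ddx58), -2.204 (Dhx58/Ifih1), -0.153 (Ifih1/Ddx58), -0.618 (Tlr3/Ticam1), -0.761 (Eif2ak2/Adar), -2.385 (Zbp1/Adar) and -0.765 (Ifih1/Adar). Depth limits Dhx58 and Zbp1 in ad-CRE, with 103 and 51 reads.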
